A study of Mus musculus with 13 samples.

Results

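Of the 4652 genes named in a table of Argonaute (AGO) footprints from mouse cortex, 58 were MAP kinases, the kinases and scaffolds that act on them, or subunits of the serine/threonine phosphatases and dual specificity phosphatases that reverse them. They were taken by a rule on names, as the genes whose symbol starts with Mapk, Map2k, Map3k, Map4k, Ppp1, Ppp2, Ppp3, Ppp4, Ppp6 or Dusp. The rule itself was set with earlier results of these data known. Together they held 220 of 18284 peaks. Tags were summed per gene over exonic peaks, meaning those whose region label names a UTR or coding sequence (CDS). That gave 194 of 11901 exonic peaks, 52 of the 3365 genes with exonic tags, and 2907 of 198038 exonic tags.

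AGO is the protein that carries a microRNA to its target RNA. In CLIP, tissue is irradiated with UV light so that AGO is fixed to the RNA it touches, AGO is precipitated, and the short RNA pieces left on it are sequenced. A peak is a stretch where such tags pile up, here nearly always 80 bases wide. All 13 libraries came from the cortex of wild-type C57BL6 mice aged 7 to 8 weeks, and all animals were anesthetized. In middle cerebral artery occlusion (MCAO) a filament closed the artery on the right side for 35 min, and the mice recovered for 3 h. The 5 ipsilateral libraries (replicates 1 to 5) came from the hemisphere of the occlusion and the 4 contralateral libraries (replicates 1, 2, 4 and 5) from the opposite hemisphere of MCAO animals. The 4 sham libraries (replicates 1, 2, 3 and 5) came from animals whose arteries were exposed with no filament. The sources used here do not say how many animals a library holds. High and low molecular weight AGO complexes were pooled in every library. Each replicate number stands for 1 day of surgery, so libraries with the same number come from the same day, and both hemispheres are compared with the same sham libraries.

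MAP kinase pathways pass signals through tiers. A MAP kinase kinase kinase phosphorylates a MAP kinase kinase, which phosphorylates a MAP kinase such as ERK, JNK or p38, and scaffolds hold the tiers together. Dual specificity phosphatases (DUSP) switch MAP kinases off, while the large phosphatases PP1, PP2A, calcineurin (PP3), PP4 and PP6 join a few catalytic subunits with many regulatory subunits that choose the substrate. In neurons calcineurin is the phosphatase opened by calcium and calmodulin, PP1 is held in dendritic spines by spinophilin, and JNK and p38 signalling is known to respond to ischemia and other stress.

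The target sites with the most tags show which microRNA families the members' peaks could be read against. An exact 7-letter match to the seed (bases 2 to 8) of 29 microRNA families was searched on the transcript's strand under each exonic peak. The neuronal microRNA miR-124-3p was not searched, because the reference used held no sequence for it. The shares below therefore say nothing about its sites. Of 138 member peaks in 3' UTRs, 31 (22.5%) held at least 1 such match, against 1924 of 7716 (24.9%) over all genes. In CDS or 5' UTR peaks the shares were 11 of 52 (21.2%) and 1008 of 3642 (27.7%). Both shares were lower among the members' peaks, a difference that was not tested, and a match describes the sequence, not a bound microRNA. The 3 families with a match in a 3' UTR peak among the members' 30 most covered peaks are shown by 1 mature microRNA each, from RefSeq (GRCm38.p6), with the seed in capitals.
let-7a-5p: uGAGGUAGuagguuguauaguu
miR-30a-5p: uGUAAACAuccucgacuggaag
miR-26a-5p: uUCAAGUAauccaggauaggcu

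The 4 sites themselves are given 5' to 3' on the transcript, read from GENCODE M21 transcripts (GRCm38, the same build as mm10), with the 7 matching letters in capitals.
Mapk6 let-7 site: gaatttggtacacatgtgttatCTACCTCa
Ppp3r1 miR-30 site: gatcaatttaaaatgtacctctTGTTTACa
Ppp1r12a miR-30 site: tttttcaatgactgagaaaactTGTTTACa
Ppp3r1 miR-26 site: gtaggttggctttaatttaataTACTTGAt
The Mapk6 site lay at chr9:75387532-75387538 (minus strand) under a peak of 48 tags, of which 17 were sham, 13 contralateral and 18 ipsilateral. The miR-30 site of Ppp3r1 lay at chr11:17199887-17199893 (plus strand) under a peak of 40 tags, with 6 sham, 12 contralateral and 22 ipsilateral. That of Ppp1r12a, at chr10:108277537-108277543 (plus strand), had 29 tags, with 6, 7 and 16 in the same order. The first 3 sites are each followed by an A, and the miR-26 site of Ppp3r1 (chr11:17198689-17198695, plus strand, a peak of 29 tags) is not. Over all 3' UTR peaks searched, the let-7 letters CTACCTC were in 0.829%, the miR-30 letters TGTTTAC in 1.78% and the miR-26 letters TACTTGA in 1.36%, against 1.45%, 2.17% and 0.725% of the members' peaks, which are 2, 3 and 1 peaks. The 2 let-7 peaks are overlapping peaks of Mapk6 that hold the same site.

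Depth limits these data. Exonic tags per library ran from 8471 to 24928 in sham, from 5702 to 27542 in contralateral and from 2750 to 24086 in ipsilateral cortex, so that 1 tag was worth 0.363 to 3.64 per 10000 exonic tags. Where tags are counted by group, the counts are not scaled for depth. They come from 4 sham, 4 contralateral and 5 ipsilateral libraries. A listed 0 (3 tags taken as its limit) allows up to 1.09 per 10000 in the deepest library and 10.9 in the shallowest, ipsilateral replicate 5, and this covers counting error only. The 3 libraries of replicate 1 stood apart: 50.4% to 60.4% of their tags lay in introns or deep intergenic sequence, against 17.5% to 44.2% in the others. Among cell type markers, 8 of 10 neuronal genes had exonic tags (summed 1.27% to 2.68% of a library's exonic tags, with medians of 2.02%, 2.14% and 2.12% in the sham, contralateral and ipsilateral groups) and 7 of 8 astrocyte genes had them, with Gfap at 0. Only 5 of 9 oligodendrocyte, 1 of 9 microglial, 2 of 6 vascular and 1 of 7 blood markers had any. In the same order of groups, the astrocyte medians were 3.12%, 3.53% and 3.33% and the oligodendrocyte medians 0.470%, 0.430% and 0.378%. The ranges of the 3 groups overlapped in both lists, and the lowest ipsilateral oligodendrocyte sum was 0.109%. These differences were not tested. A change in tags can come from more or less RNA, more or less AGO on it, fewer cells of a type or less RNA per cell, and these cannot be told apart here.

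The members' tags were mostly in 3' UTRs, and a gene held few of them. Of the members' 3770 tags in all peaks, 59.2% lay in 3' UTR peaks, 17.9% in CDS or 5' UTR peaks and 22.9% in introns. Over all peaks of the table these shares were 36.9%, 13.2% and 30.3%. The members' tags all lay in these classes, while the table's total also holds other regions, deep intergenic sequence among them. The members' and the table's shares thus have unlike bases, and part of their difference comes from that. The tag-rich exonic peaks were the 3' UTR peaks of Dusp22 (chr13:30710438-30710517, 94 tags), Mapk6 (chr9:75387557-75387636, 72 tags), Ppp1cb (chr5:32492291-32492370 and chr5:32492343-32492422, which overlap, 64 and 63 tags) and Ppp3ca (chr3:136935606-136935685, 53 tags). Of the 194 exonic member peaks, 46 overlapped another peak of the same gene, so a tag may have been counted in both.

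Ppp3r1, the calcium-binding regulatory B subunit of calcineurin, was the most covered member on both scales. It had 349 exonic tags in 17 peaks, or 122 tags per kb of its longest coding transcript over the 13 libraries. Per kb, it was followed by Map2k4 (56.8), Ppp1r9b (53.5), Mapk6 (51.4), Dusp22 (38.5) and Dusp1 (38.2). Of further members, Ppp2r2c had 31.3 and Ppp1cb 27.5 tags per kb. By mean share over libraries the leading members, in order, included Ppp3r1 (18.5 per 10000 exonic tags), Mapk6, Ppp1r9b, Map2k4, Ppp1cb, Ppp2r2c, Ppp2ca, Ppp1r9a, Dusp22, Dusp8, Dusp1, Ppp3ca, Ppp1r12a and Dusp3. All neighbours in this order overlapped in their range over libraries, Ppp3r1 (7.96 to 32.7) and Mapk6 (5.47 to 27.2) included.

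Summed over all members, the share of exonic tags was highest in 4 of the 5 ipsilateral libraries and lowest in the fifth. The sham libraries (replicates 1, 2, 3 and 5) had 1.32%, 1.42%, 1.35% and 1.28% of their exonic tags on members, a mean of 1.34% ± 0.0575 (SD, n = 4). The contralateral libraries (1, 2, 4 and 5) had 1.34%, 1.39%, 1.37% and 1.19%, a mean of 1.32% ± 0.0913 (SD, n = 4). Ipsilateral replicates 1 to 5 had 1.18%, 1.88%, 1.82%, 2.03% and 1.86%, a mean of 1.76% ± 0.329 (SD, n = 5). Ipsilateral replicates 2 to 5 thus lay above all sham and contralateral libraries, and replicate 1, whose library had 60.4% of tags in introns or deep intergenic sequence, lay below all of them. Without replicate 1 of every group, the means per 10000 exonic tags were 134.8 ± 6.87 (SD, n = 3) in sham, 131.7 ± 11.1 (SD, n = 3) in contralateral and 189.7 ± 9.21 (SD, n = 4) in ipsilateral cortex. Since the genes were chosen with results of these data known, the sum is a description with no test.

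**Figure D1:**
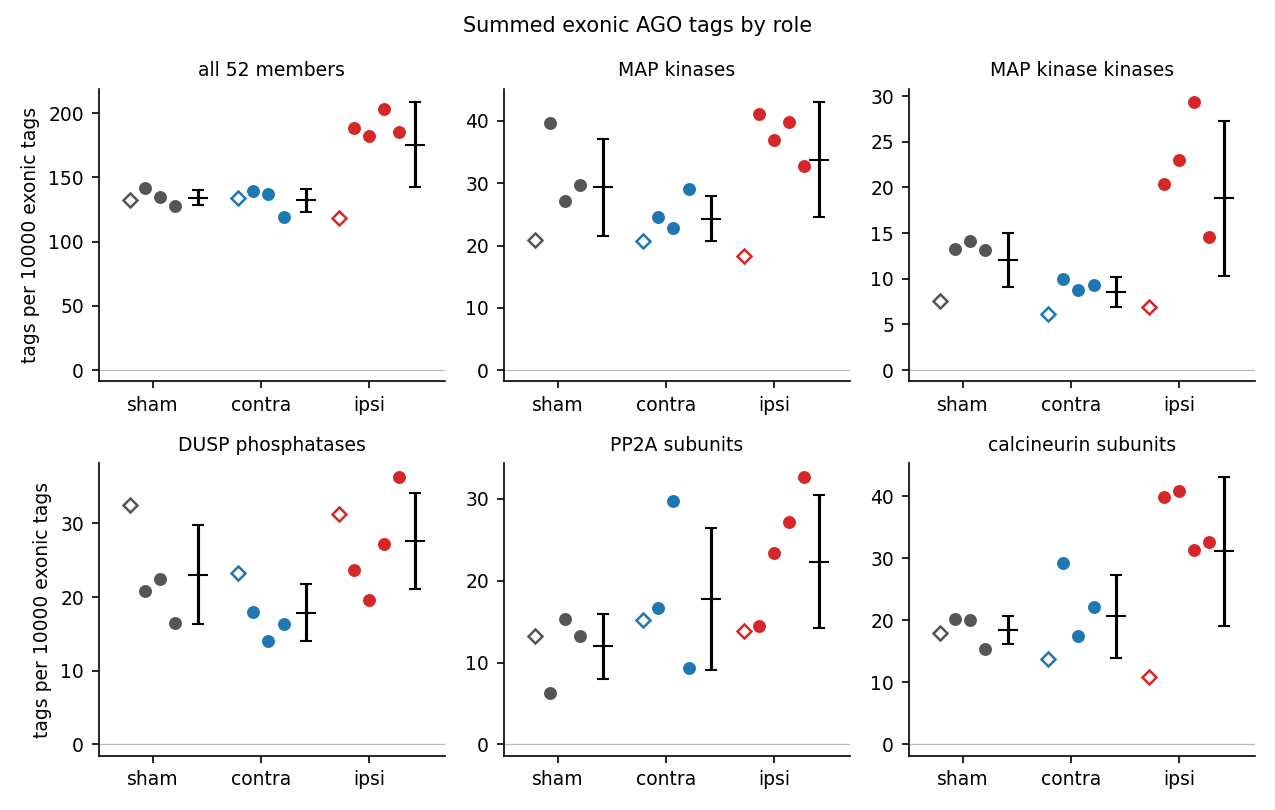
Summed exonic tags per 10000 exonic tags (y axis) in sham, contralateral (contra) and ipsilateral (ipsi) libraries, for all 52 members with exonic tags and for 5 roles; each point is 1 library, open diamonds are replicate 1, and the bar to the right of each group is the mean ± SD (n = 4, 4 and 5). For all members, ipsilateral replicates 2 to 5 sit between 182.4 and 203.1, above the other groups, and ipsilateral replicate 1 sits at 118.3.

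In the sums of calcineurin subunits and of MAP kinase kinases, ipsilateral replicates 2 to 5 lay above all other libraries, with the smallest gap in each sum under 1 tag. The 3 calcineurin subunits (468 exonic tags) made up 18.4 ± 2.24 per 10000 exonic tags in sham libraries, 20.7 ± 6.69 in contralateral and 31.2 ± 12 in ipsilateral ones. Their ipsilateral libraries 2 to 5 held 31.4 to 40.8, and ipsilateral replicate 1 held 10.9, the lowest of the 13. The lowest of the 4, ipsilateral replicate 4 at 31.4, stood next to contralateral replicate 2 at 29.3, and 1 tag of replicate 4 is worth 2.09. Ppp3r1 gave 349 of the 468 tags, and Ppp3cb had a lower mean in ipsilateral (1.19) than in sham libraries (1.28). The MAP kinase kinases Map2k1, Map2k4 and Map2k7 (254 tags) summed to 12.1 ± 2.99, 8.57 ± 1.67 and 18.8 ± 8.49 in the same order of groups, and Map2k4 gave 210 of these tags. Ipsilateral replicate 5 held 14.5 beside 14.2 in sham replicate 3, where 1 tag of the former is worth 3.64, and Map2k7 had a lower mean in ipsilateral (0.338) than in sham libraries (0.728). The 7 PP2A subunits with tags (311 tags) summed to 12 ± 3.96, 17.8 ± 8.64 and 22.4 ± 8.13. The MAP kinases (569 tags over 8 genes) had 29.3 ± 7.81, 24.3 ± 3.6 and 33.8 ± 9.19, and the 7 DUSP genes (462 tags) 23.1 ± 6.77, 17.9 ± 3.91 and 27.6 ± 6.54. The PP1 catalytic subunits had 9.26 ± 2.69, 6.55 ± 5.07 and 6.91 ± 2.07, so their ipsilateral mean was lower than that of sham only. Ppp1cb gave 164 of their 170 tags, and the mean of Ppp1ca (6 tags) was 0 in sham and 1.65 in ipsilateral libraries. The regulatory subunits of PP1 were higher in their mean in contralateral (26.2 ± 5.35) than in sham (19.7 ± 2.32) and ipsilateral cortex (23.7 ± 6.84). In the MAP kinase, DUSP, PP1 and PP2A sums, ipsilateral replicates 2 to 5 overlapped the other groups.

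Counted gene by gene, 33 of the 52 members had a higher mean share in ipsilateral than in sham cortex, and 34 of 52 a higher one than in contralateral cortex. Over all 3365 genes with exonic tags these counts were 1565 (46.5%) and 1686 (50.1%). In contralateral against sham cortex 22 of 52 members were higher, beside 45.8% of all genes. The first and the last counts share the sham libraries, and the first and the second the ipsilateral libraries.

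Few members had enough tags for a test of their own. A filter on low counts (filterByExpr in edgeR) kept 436 genes, with 63.4% of the exonic tags, and 9 of the 52 members, among them Ppp3r1, Mapk6, Ppp1r9b, Map2k4, Ppp1cb, Ppp2r2c, Ppp1r9a and Dusp22. In edgeR's quasi-likelihood test, with Benjamini-Hochberg adjustment over all genes tested and a threshold of 0.05, none of the 9 was called in any comparison. Of all genes tested, 0.229% were called in ipsilateral against sham, 0% in ipsilateral against contralateral and 0% in contralateral against sham cortex. With the replicate number as a block, 0 members were called too, beside 1.15%, 0.917% and 0% of all genes. DESeq2 also called 0 members, beside 1.61%, 0.917% and 0%. At an unadjusted p under 0.05, edgeR without the block and DESeq2 each had 0, 1 and 0 of the 9 members in these comparisons and the blocked edgeR fit had 0, 1 and 1. Of all 436 genes, 9.4%, 12.2% and 1.61% were below it in edgeR without the block, 11.5%, 14% and 4.13% in the blocked fit and 8.26%, 11.2% and 1.38% in DESeq2, and beside these shares 0 or 1 of 9 members is not read as a result about the members. The members' median log2 fold change was 0.20, 0.35 and -0.09 in the 3 comparisons, against -0.02, 0.01 and -0.01 over all genes tested. With the block the members' medians were 0.02, 0.24 and -0.17, against -0.02, 0.01 and -0.02, and in ipsilateral against sham cortex 5 of the 9 lay above 0 and 4 below.

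**Figure D2:**
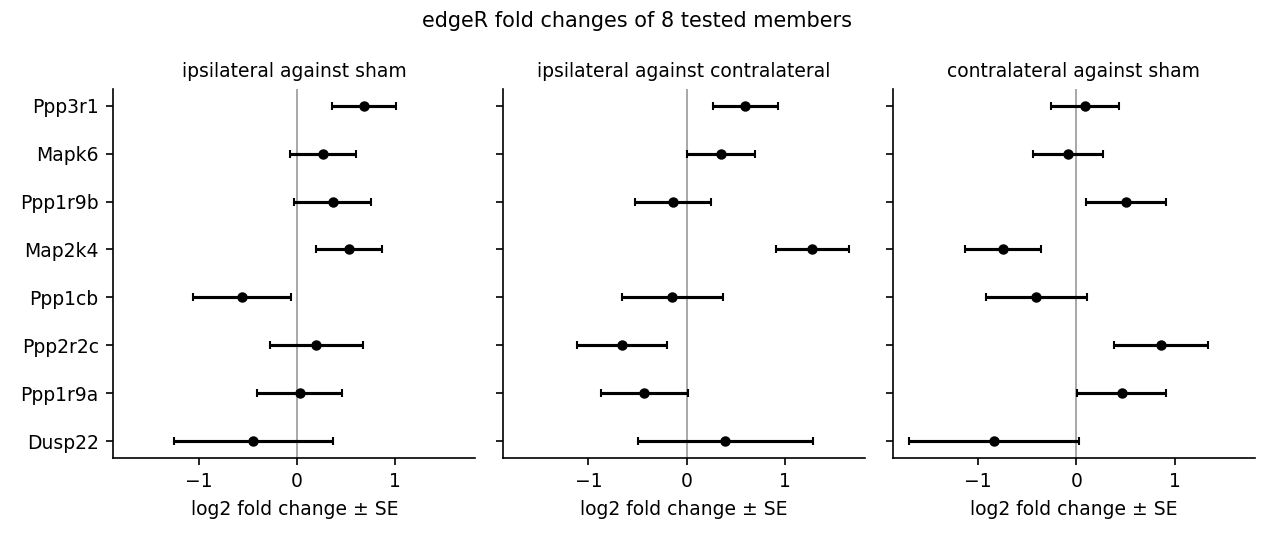
Log2 fold change ± standard error (x axis, edgeR) of 8 tested members (rows) in the 3 comparisons (panels), with the grey line at 0. The point farthest from 0 is Map2k4 in ipsilateral against contralateral cortex, at 1.28.

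Map2k4 encodes MKK4, the MAP kinase kinase that phosphorylates JNK and p38, and was the member nearest to a call. Its share per 10000 exonic tags was 6.42, 11.1, 11.8 and 12.7 in sham replicates 1, 2, 3 and 5. In contralateral replicates 1, 2, 4 and 5 it was 4.72, 8.00, 7.02 and 5.83. In ipsilateral replicates 1 to 5 it was 6.96, 17.0, 17.4, 27.2 and 7.27. Ipsilateral replicates 2, 3 and 4 lay above every other library, while replicates 1 and 5 lay within the contralateral range. Its log2 fold change by edgeR stood at 1.28 (SE 0.37, adjusted p = 0.144) in ipsilateral against contralateral cortex. It was 0.53 (SE 0.34, adjusted p = 0.597) against sham, and -0.75 (SE 0.39, adjusted p = 0.995) in contralateral against sham cortex. Without ipsilateral replicate 1, Map2k4 was 1.47 higher on the log2 scale in ipsilateral than in contralateral cortex and passed the threshold (edgeR, adjusted p = 0.0185). That fit called 2.18% of 412 genes higher. With all 3 replicate 1 libraries left out the value was 1.28 (edgeR, adjusted p = 0.0834), and with the replicate block it was 1.11 (edgeR, adjusted p = 0.178). Its 210 exonic tags lay in 14 peaks, the most covered of which (30 tags) was in the CDS at chr11:65691717-65691796. Several of the 14 overlap another, so tags may have been counted more than once. Among them are the 3' UTR peaks at chr11:65690324-65690403 and chr11:65690370-65690449, with 21 tags each. With overlapping peaks reduced to 1, the log2 fold change of Map2k4 in ipsilateral against sham cortex was 0.41 (edgeR, adjusted p = 0.711).

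Ppp3r1 shared the split between ipsilateral replicates. Its share per 10000 exonic tags was 15.2, 16, 14.2 and 11.0 in the sham libraries (replicates 1, 2, 3 and 5), and 10.2, 23.3, 12.3 and 16.3 in the contralateral ones (1, 2, 4 and 5). In ipsilateral replicates 1 to 5 it was 7.96, 29.9, 26.8, 25.1 and 32.7. The last 4 were above all other libraries, and the first was the lowest of the 13. edgeR put its log2 fold change at 0.68 (SE 0.33, adjusted p = 0.484) in ipsilateral against sham and of 0.60 (SE 0.33, adjusted p = 0.423) in ipsilateral against contralateral cortex. Without ipsilateral replicate 1 these were 0.91 (edgeR, adjusted p = 0.0553) and 0.83 (edgeR, adjusted p = 0.104). The difference between contralateral and sham was 0.08 (SE 0.35, edgeR, adjusted p = 0.995). Ppp3r1 had no intronic peak, and 5 of its 3' UTR peaks were among the members' 30 most covered, between chr11:17198650 and chr11:17200391.

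**Figure D3:**
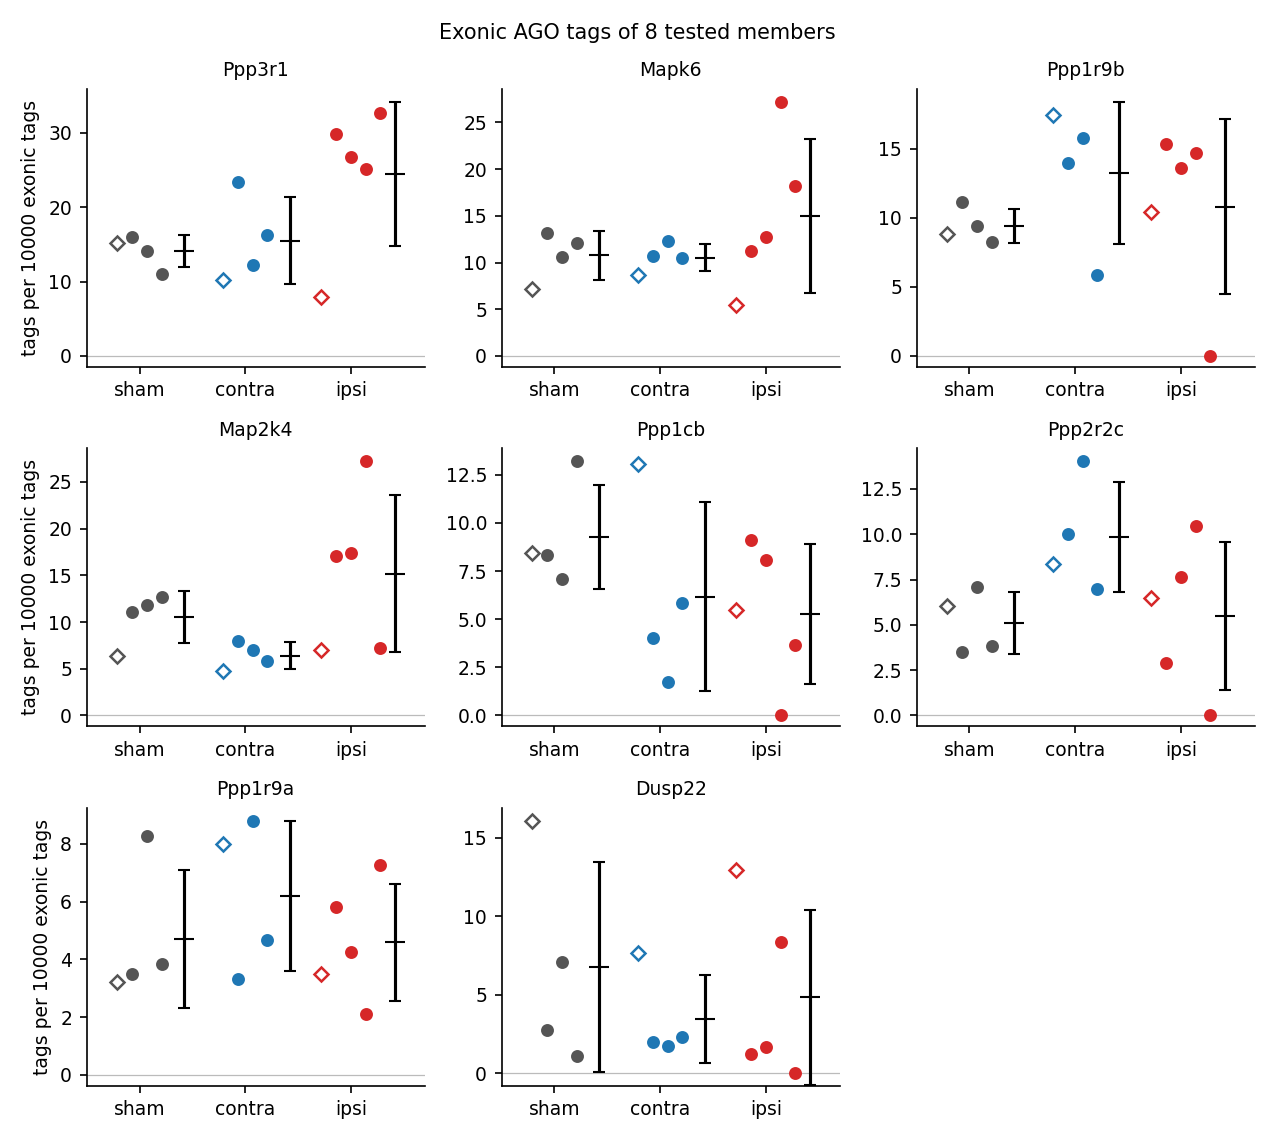
Exonic tags per 10000 exonic tags (y axis) of 8 members that passed the filter on low counts, in sham, contralateral (contra) and ipsilateral (ipsi) libraries; points are libraries, open diamonds are replicate 1 and bars are mean ± SD (n = 4, 4 and 5). Ppp3r1 sits at 25.1 to 32.7 in ipsilateral replicates 2 to 5 and at 7.96 in ipsilateral replicate 1, and Dusp22 is highest in replicate 1 of each group.

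Of the MAP kinases, Mapk6 encodes the atypical kinase ERK3, which lies outside the classical cascade. Its share was 7.22 to 13.2 per 10000 exonic tags in sham, 8.71 to 12.3 in contralateral and 5.47 to 27.2 in ipsilateral libraries, where replicates 4 and 5, the shallowest, were highest. The log2 fold changes were 0.26 (SE 0.34) against sham and 0.35 (SE 0.35) against contralateral cortex (edgeR, adjusted p = 0.897 and 0.689). The stress-activated kinases were thinly covered in exons: p38 alpha (Mapk14) had 79 exonic tags, JNK2 (Mapk9) 52, JNK3 (Mapk10) 34 and JNK1 (Mapk8) 25. ERK4 (Mapk4) had 35 and ERK5 (Mapk7) 6.

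Kinases of the first tier and the scaffolds were near the floor. The 7 genes of the first tier (Map3k2, Map3k3, Map3k7, Map3k9, Map3k10, Map3k12 and Map4k4) had 104 exonic tags in all, 38 in sham, 29 in contralateral and 37 in ipsilateral libraries. Their summed share was 5.36 ± 1.88, 5.63 ± 2.14 and 4.94 ± 2.24 per 10000. The JNK scaffolds Mapk8ip2 and Mapk8ip3 and the JNK-binding protein gene Mapkbp1 had 34 tags. MEK1 (Map2k1), the kinase above ERK, had 28 exonic tags, of which 20 were ipsilateral, 2 contralateral and 6 sham. It had 2.91, 4.25, 2.09 and 7.27 per 10000 in ipsilateral replicates 2 to 5 and no tag in replicate 1. MKK7 (Map2k7) had 9 of its 16 tags in contralateral libraries.

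PP1 is steered by its partners. Ppp1r9b (spinophilin), which holds PP1 at actin in dendritic spines, had 8.83, 11.1, 9.44 and 8.25 per 10000 exonic tags in sham libraries. It had 17.4, 14.0, 15.8 and 5.83 in contralateral and 10.4, 15.4, 13.6, 14.7 and 0 in ipsilateral libraries, where the 0 is from the shallowest. The log2 fold change was 0.36 (SE 0.39) in ipsilateral against sham and 0.50 (SE 0.41) in contralateral against sham cortex (edgeR, adjusted p = 0.775 and 0.995). Ipsilateral against contralateral it was -0.14 (SE 0.39, edgeR, adjusted p = 0.900), and 0.43 when only 3' UTR peaks were summed. Its relative Ppp1r9a (neurabin 1) had 3.21, 3.48, 8.26 and 3.85 in sham, 7.99, 3.33, 8.77 and 4.67 in contralateral and 3.48, 5.81, 4.25, 2.09 and 7.27 in ipsilateral libraries. Its log2 fold change was 0.46 (SE 0.45, edgeR, adjusted p = 0.995) in contralateral against sham and -0.43 (SE 0.44, edgeR, adjusted p = 0.687) in ipsilateral against contralateral cortex.

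Ppp1cb, the beta catalytic subunit of PP1, had 8.42, 8.34, 7.08 and 13.2 per 10000 exonic tags in sham libraries. In contralateral libraries it had 13.1, 4.00, 1.75 and 5.83, and in ipsilateral libraries 5.47, 9.13, 8.08, 0 and 3.64. The groups overlapped, and the log2 fold change in ipsilateral against sham cortex was -0.56 (SE 0.50, edgeR, adjusted p = 0.718). Most of its tags came from the overlapping pair of 3' UTR peaks (64 and 63 tags). The pair had close counts in every library, so many of these tags may have been counted in both peaks. With overlapping peaks reduced to 1, 7 members passed the filter on low counts, and Ppp1cb was not among them. Ppp1r12a, the subunit that targets PP1 to myosin, had 2.69 ± 1.29, 3.70 ± 1.88 and 5.35 ± 3.71 per 10000 in sham, contralateral and ipsilateral cortex. Its 67 tags were below the filter.

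Among PP2A subunits, only the brain-enriched regulatory subunit Ppp2r2c (B gamma) was tested. It had 6.02, 3.48, 7.08 and 3.85 per 10000 exonic tags in sham, 8.35, 10.0, 14.0 and 7.00 in contralateral, and 6.46, 2.91, 7.65, 10.5 and 0 in ipsilateral libraries. Contralateral libraries were high, with their lowest value just under the highest sham value. The log2 fold change was 0.86 (SE 0.48, edgeR, adjusted p = 0.995) in contralateral against sham, -0.66 (SE 0.46, edgeR, adjusted p = 0.517) in ipsilateral against contralateral and 0.20 (SE 0.48, edgeR, adjusted p = 0.924) in ipsilateral against sham cortex. The catalytic subunit gene Ppp2ca had 3.33 ± 1.08 in sham libraries, 4.86 ± 5.42 in contralateral and 8.97 ± 7.49 in ipsilateral ones. Its ipsilateral values were 2.49, 6.23, 5.95, 8.38 and 21.8 (6 tags in the shallowest library), so that replicates 2 to 5 lay above every sham library, whose highest was 4.72. In contralateral libraries (replicates 1, 2, 4 and 5) it had 1.82, 5.33, 12.3 and 0. The 12.3 was above ipsilateral replicates 1 to 4. All 6 tags of ipsilateral replicate 5 lay in overlapping peaks (chr11:52121935-52122014, chr11:52121960-52122039 and chr11:52121978-52122057), with 2 tags in each. They may be the same 2 tags, so the 21.8 and the ipsilateral mean may be too high. Contralateral replicate 4 had 1 tag in each of these peaks, so the 12.3 may be too high as well. Ppp2cb, whose protein is nearly identical to that of Ppp2ca, had 16 of its 22 exonic tags in ipsilateral libraries. Its 2 exonic peaks lay in the 3' UTR. How reads shared by such paralogs were placed is not given in the sources used here, so the split between these 2 genes is uncertain.

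The catalytic calcineurin subunit Ppp3ca, abundant in forebrain neurons, had 93 exonic tags in 2 peaks. Its share was 2.41 to 3.54 per 10000 in sham, 3.27 to 5.83 in contralateral and 0 to 11.5 in ipsilateral libraries, where replicates 2 to 4 had 7.06, 11.5 and 6.28. Replicate 1 had 2.49 and replicate 5 had 0. Ppp3cb, the other catalytic subunit, had 26 tags.

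The DUSP genes did not share a pattern. Dusp1 (MKP-1), an immediate early gene whose product dephosphorylates p38, JNK and ERK in the nucleus, had 3.21, 4.87, 1.18 and 3.30 per 10000 exonic tags in sham libraries. It had 2.54, 3.33, 0 and 2.33 in contralateral and 4.48, 4.98, 4.68, 8.38 and 14.5 in ipsilateral libraries. Every ipsilateral library was above every contralateral one, ipsilateral replicate 1 included, and they overlapped sham. The 0 of contralateral replicate 4 allows up to 5.26 per 10000, which is above ipsilateral replicates 1 to 3. Dusp1 was the only one of the 52 members of which this held, beside 0.386% of the 3365 genes with exonic tags, while 0 members were lower without overlap, beside 1.4%. Against sham, Dusp7 was higher without overlap in ipsilateral cortex (1.25 to 3.64 against 0.401 to 1.18), beside 0.505% of genes. In contralateral cortex it was also higher than sham without overlap (1.75 to 4.67), beside 0.921%. Dusp7, which acts on ERK in the cytoplasm, had 33 tags in all, 5 of them in sham. Its ipsilateral replicate 2 (1.25) stood next to sham replicate 3 (1.18), where 1 tag is worth 0.415 and 1.18. Ipsilateral replicates 4 and 5 and contralateral replicate 4 had 1 Dusp7 tag each, so both separations are smaller than 1 tag. Lower without overlap was Ppp1r16a in both MCAO hemispheres, a gene with 4 tags, 1 in each sham library. Of all genes 2.08% were lower in that way in ipsilateral and 1.72% in contralateral cortex.

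Dusp22, a phosphatase of the JNK pathway, had its highest share in replicate 1 of every group. It had 16.1 per 10000 exonic tags in sham replicate 1, 7.63 in contralateral replicate 1 and 12.9 in ipsilateral replicate 1. Elsewhere it had 2.78, 7.08 and 1.1 in sham, 2.00, 1.75 and 2.33 in contralateral and 1.25, 1.70, 8.38 and 0 in ipsilateral libraries. Thus 75.0% of its 116 exonic tags fell in the 3 replicate 1 libraries, against 36.7% of all exonic tags and 32.2% of those of the members. The log2 fold change was -0.44 (SE 0.81) in ipsilateral against sham and -0.84 (SE 0.87) in contralateral against sham cortex (edgeR, adjusted p = 0.913 and 0.995). Without sham replicate 1 the values were 0.81 and 0.40. Dusp8, which encodes a phosphatase of JNK and p38, had 6.77 ± 2.29 in sham libraries, 4.83 ± 0.290 in contralateral and 2.68 ± 2.99 in ipsilateral ones, with overlapping ranges. Its ipsilateral replicates 4 and 5 had 0 tags, which at their depth allows 6.28 and 10.9 per 10000. Dusp3 had 3.38 ± 0.154, 3.28 ± 1.45 and 4.88 ± 3.33, and the ERK phosphatase gene Dusp6 had 27 of its 49 tags in ipsilateral, 16 in sham and 6 in contralateral libraries. The mean shares of Dusp6 were 2.09 ± 1.59, 1.32 ± 1.53 and 4.86 ± 5.91 per 10000 in sham, contralateral and ipsilateral libraries.

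**Figure D4:**
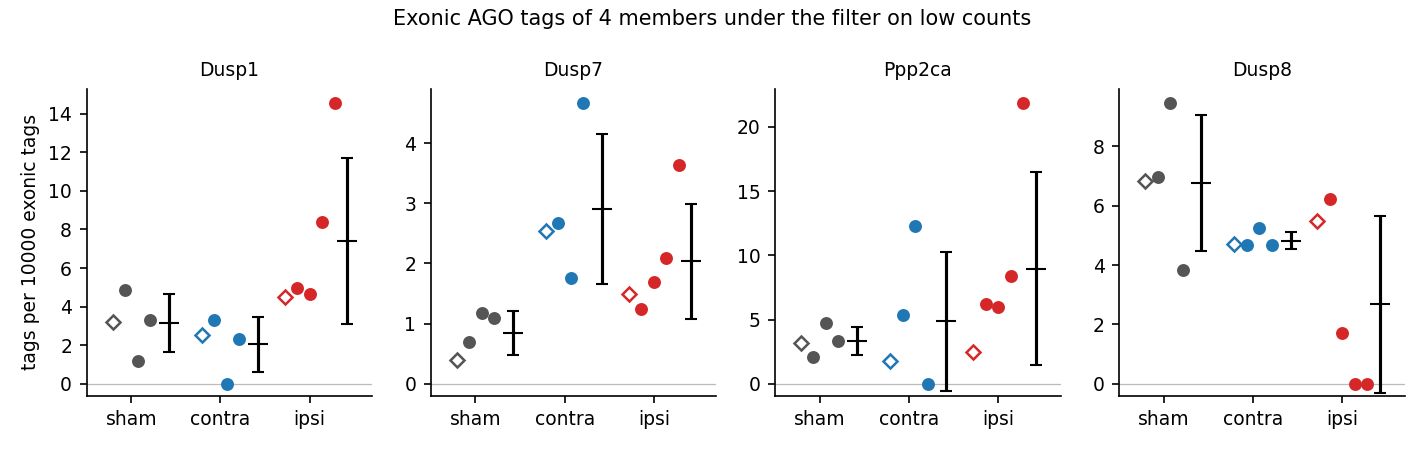
Exonic tags per 10000 exonic tags (y axis) of Dusp1, Dusp7, Ppp2ca and Dusp8, none of which passed the filter on low counts, by group; points are libraries, open diamonds are replicate 1 and bars are mean ± SD (n = 4, 4 and 5). All 5 ipsilateral values of Dusp1 (4.48 to 14.5) sit above the contralateral ones (0 to 3.33). The sham values of Dusp7 (0.401 to 1.18) sit below both other groups, by less than 1 tag.

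With the filter left out, all 52 members entered the edgeR fit and 0 were called, beside 0.0594% of 3365 genes in ipsilateral against sham, 0.0594% in ipsilateral against contralateral and 0% in contralateral against sham cortex. At an unadjusted p under 0.05 there were 3, 7 and 4 of the 52 members in the same order, beside 9.78%, 9.96% and 6.33% of all 3365 genes, and beside those shares nothing is read from these counts about the members. The 7 in ipsilateral against contralateral cortex were Dusp1, Dusp6, Map2k1, Map2k4, Map3k3, Ppp2cb and Ppp2r2d. The log2 fold change of Dusp1 was 1.22 (SE 0.61, edgeR, adjusted p = 0.478) and that of Map2k1 2.67 (SE 0.98, edgeR, adjusted p = 0.324). Ppp2r2d was lower, at -3.24 (SE 1.18, edgeR, adjusted p = 0.326), with 4 exonic tags, all contralateral, and the others were higher. Map3k3 had the lowest adjusted p of the 52 members in this comparison, at a log2 fold change of 4.33 (SE 1.38, edgeR, adjusted p = 0.237). The 16 tags of Map3k3 lay in 2 overlapping peaks of 8 tags with the same counts in every library, so they may be the same 8 tags. Dusp7 had 1.74 (SE 0.85, edgeR, adjusted p = 0.676) in contralateral against sham cortex.

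Intronic peaks held tags of several members that their exons did not. The most covered of all member peaks lay in an intron of Ppp3ca (chr3:136794639-136794718, 163 tags), and the others among the leading peaks were in introns of Mapk10 (chr5:102968419-102968498, 82 tags, and chr5:102967422-102967501, 61 tags), Ppp2r5c (chr12:110418955-110419034, 76 tags), Mapk8 (chr14:33418911-33418990, 63 tags) and Ppp6r3 (chr19:3549397-3549476, 53 tags). The replicate 1 libraries gave 73.9% of the intronic tags of Ppp3ca, 81.6% of those of Ppp2r5c, 81.0% of those of Mapk8 and 66.0% of those of Ppp6r3. Of all intronic tags of the table they gave 66.2%, so that Ppp6r3 was near this share and the other three were above it. Intronic tags alone were found for Ppp2r5e (20 tags), Map2k5 (12), Ppp2r2b (10), Ppp1r15b (8), Map2k6 (7) and the pseudogene Ppp4r1l-ps (3).

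Mapk10, which encodes the neuronal kinase JNK3, differed from these. It had 351 intronic tags in 10 peaks, of which 46.2% came from replicate 1 libraries, and 9 of the peaks lay between chr5:102967230 and chr5:102968854. Some neighbouring peaks in this stretch overlap by a few bases, so a tag may have been counted more than once. Per 10000 tags in all peaks, sham libraries had 6.05, 6.14, 8.93 and 20.3 intronic Mapk10 tags. Contralateral libraries had 16.1, 8.71, 5.03 and 39.8, and ipsilateral libraries 2.02, 2.30, 3.32, 8.45 and 15.9. Replicate 5 was the highest library of each group and ipsilateral replicates 1 to 3 the lowest of the 13. Over all peaks of the gene, the log2 fold change of ipsilateral over contralateral cortex was -1.56 (SE 0.55, edgeR, adjusted p = 0.380), in a fit of 590 genes that called 0%. It was -1.01 (SE 0.55, edgeR, adjusted p = 0.694) in ipsilateral against sham cortex. The exonic tags of Mapk10 (34) had means of 1.51, 1.90 and 1.53 per 10000 exonic tags in sham, contralateral and ipsilateral cortex.

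**Figure D5:**
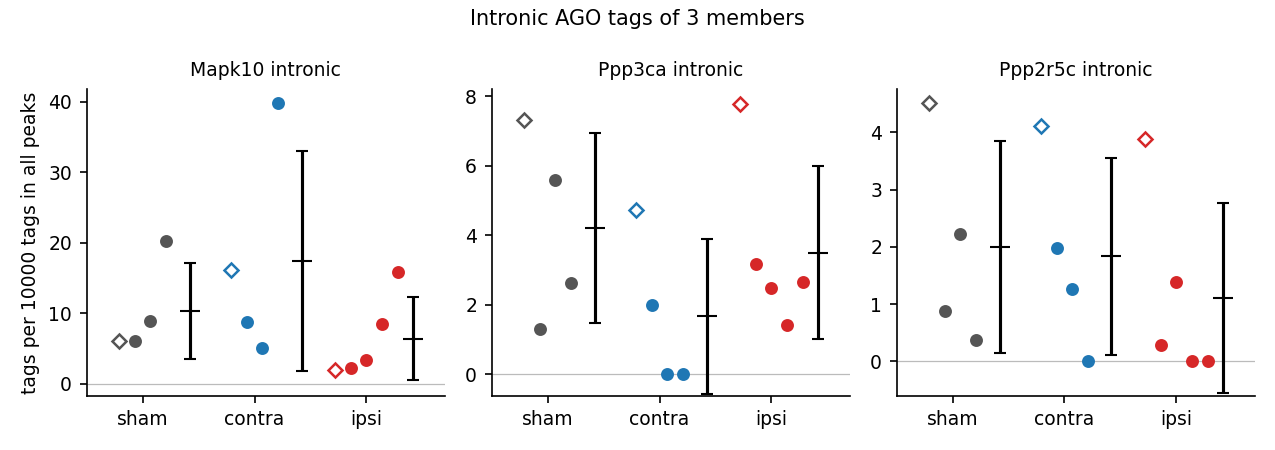
Intronic tags per 10000 tags in all peaks (y axis) of Mapk10, Ppp3ca and Ppp2r5c by group; points are libraries, open diamonds are replicate 1 and bars are mean ± SD (n = 4, 4 and 5). Ppp2r5c is highest in replicate 1 of each group (3.89 to 4.51), and Mapk10 is highest in replicate 5 of each group.

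Genes around these pathways, from lists drawn up by function, gave 0 calls by edgeR, with or without the block, and by DESeq2. Of 27 regulators upstream of ERK, 17 had exonic tags and 3 were tested (Nf1, Rasgrp1 and Spred1). Of 18 downstream kinases and substrates, 9 had tags and 2 were tested, Mef2a and Mef2c. Of 9 partners of JNK and p38, 6 had tags and 1 (Taok1) was tested, and of 31 other phosphatases and partners 20 had tags and Arpp19, Phactr1 and Ppm1e were tested. At an unadjusted p under 0.05, each of the 3 fits had 2 of these genes (Mef2c and Phactr1) in ipsilateral against sham, 1 in ipsilateral against contralateral and 0 in contralateral against sham cortex. That is 2 of 9 genes beside the 9.4%, 11.5% and 8.26% of all genes given for these fits in ipsilateral against sham cortex. Mef2c, a transcription factor activated by p38 and calcineurin signalling, had 8.5 ± 1.61, 13.1 ± 6.34 and 21.8 ± 8.57 per 10000 exonic tags in sham, contralateral and ipsilateral cortex. Its log2 fold change in ipsilateral against sham cortex was 1.24 (SE 0.34, edgeR, adjusted p = 0.137). Its ipsilateral replicate 1 library was at 9.45, within the sham range of 6.95 to 10.6. Phactr1, an actin-binding partner of PP1, had 18.6 ± 3.25, 17.6 ± 3.81 and 10.3 ± 4.00, with a log2 fold change of -0.76 (SE 0.28, edgeR, adjusted p = 0.319) in ipsilateral against sham cortex.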

How the data were processed

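The deposited table gives counts of AGO tags per peak and library. Reads (50-base single-end, per the labels) were aligned with Novoalign to mm10, per the submitters' processing notes. Neither the peak caller nor the handling of duplicate reads is named there. Starts were converted to 1-based. One peak without a position (44 tags) was left out, and an exonic peak without a gene name (24 tags) entered no gene. Strand codes in the peak names matched the gene's strand in 48.6% of 8854 exonic peaks and were not used, so sense and antisense tags cannot be told apart. The Ppp1ca and Map3k12 peaks overlap other genes and are uncertain.

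Exonic tags were summed per gene and tested with edgeR 4.0.16 (R 4.3.3): TMM factors, filterByExpr, 1 quasi-likelihood fit of 13 libraries, 3 contrasts, two-sided, Benjamini-Hochberg over 436 genes. The biological coefficient of variation was 0.366. DESeq2 1.42.0 and the other settings of the closing section were alternatives. The scripts were tested on simulated data. Replicates are days of surgery, per the series' design text, so p-values measure the spread between these libraries, and the number pairs them: deviations from group means correlated with a median r of 0.259 within a number and -0.08 between numbers.

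Named genes follow a rule: the 15 members with the highest mean share, the 3 tested members with the smallest p in each direction of each comparison, any called member, the 3 members with the most tags in a role, the 10 most covered peaks, and seed matches in the 30 most covered. Other members named individually were chosen after their values were seen. The members, roles and lists were chosen with earlier results of these data known. Results of 1 tested member are not reported here, though its tags stay in all sums, counts and fits. The microRNA count table was not used here.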

Additional observations from a re-analysis of the deposited data

Results flagged for a closer look

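In 6 of 87 groups of 4 or 5 libraries, 1 library lay far from the others by Dixon's 95% limit, and chance alone flags about 1 in 20 groups. Summed over all members, ipsilateral replicate 1 was the lowest ipsilateral library, with 118.3 per 10000 exonic tags where the others had 182.4 to 203.1. The MAP kinase kinases summed to 7.62 in sham replicate 1 and to 13.2 to 14.2 in the other sham libraries. Dusp22 had 7.63 in contralateral replicate 1 and 1.75 to 2.33 in the other contralateral libraries. These 3 are replicate 1 libraries, whose share of intronic and deep intergenic tags was above 50%; its part in these values was not tested. Ppp1r9a had 8.26 in sham replicate 3 against 3.21 to 3.85 in the other sham libraries. The PP4 subunits summed to 2.09 in sham replicate 2 against 1.1 to 1.2. Dusp8 had 5.26 in contralateral replicate 4 against 4.67 to 4.72, a gap of less than 1 tag at that depth.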

How the results depend on the processing

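The depth is the main limit: 9 of 52 members had enough tags for a test and 1 tag was worth up to 3.64 per 10000. With overlapping peaks reduced to 1, 7 members had enough, Ppp1cb not among them. For 15 fold changes of members, 349 alternative values were computed: 341 kept direction and side of the threshold, 7 took the other sign and 1 passed the threshold. Since none of the 15 was called in the main fit, any uncalled value of the same sign counted as kept, whatever its size. Dusp22 in ipsilateral against sham cortex, at -1.84 without ipsilateral replicate 1 and -0.04 without ipsilateral replicate 2, counted as kept in both. Some settings left out a library of the group not compared. The count therefore does not measure how steady the sizes were.

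Genes called in ipsilateral against sham cortex numbered 1, and 7 with DESeq2, 2 with no filter, 0 with all peaks, 2 without the replicate 1 libraries, 5 with the replicate block, 2 without peaks also labelled intron, 0 with overlapping peaks reduced to 1, and 0 to 10 leaving out 1 library. In ipsilateral against contralateral cortex they numbered 0, and 4, 2 and 4 with DESeq2, no filter and the block, 1 with all peak tags as library size, 3 without replicate 1 libraries and 0 to 10 leaving out 1 library. The highest counts, 10 and 10, came without ipsilateral replicate 1. The paired fit with the replicate block changed no call of a member, and members called ranged from 0 to 1 (Map2k4) leaving out 1 library. The 2 settings on intron labels and overlapping peaks were chosen after seeing the data.

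Leaving out 1 library, Dusp22 ran from -1.84 to 0.81 (ipsilateral against sham) and from -1.86 to 0.40 (contralateral against sham), changing sign without sham replicate 1. Ppp1r9b was 0.43 with 3' UTR peaks only, 0.11 without replicate 1 libraries and -0.39 to 0.11 leaving out 1 library (ipsilateral against contralateral), and -0.12 with 3' UTR peaks only (contralateral against sham). The cause of these changes was not tested. The members' summed share was 0.939%, 1.06% and 1.26% of tags in all peaks in sham, contralateral and ipsilateral cortex, and 1.43%, 1.35% and 1.88% of tags in 3' UTR peaks.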
